A study of Mus musculus with 2 samples.

Results

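The Mir322 cluster is a group of 7 microRNA genes on the X chromosome: Mir322, Mir503, Mir351, Mir542, Mir450a-2, Mir450a-1 and Mir450b. They were taken by name from the 2202 microRNA genes counted, with earlier results of these data known. Levels were measured by microRNA-seq in adrenal glands of female B6CASTF1/J mice aged 10 days, an F1 hybrid of a C57BL/6J and a CAST/EiJ parent. The 2 libraries form 1 group, labelled biological replicates 2 and 1 (animals 4 and 3). The donor entry is identical for both, so only those numbers mark them as separate animals, and any p-value measures only the spread between these libraries against counting error. There was no treated or control group.

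A microRNA is cut from a hairpin in a longer primary transcript and guides Argonaute to target mRNAs, mainly through its seed, bases 2 to 8 from its 5′ end. The genes of this cluster are transcribed in 1 direction, and in humans the matching genes (MIR424 in place of Mir322) share a noncoding host RNA. miR-322 and miR-503 belong to the miR-15/16 superfamily, known for repressing cyclins and Cdc25A and slowing the cell cycle, for instance as myoblasts leave it. miR-351 has the seed of miR-125, and miR-542-3p is known in human cells to target the survivin gene BIRC5.

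The cluster spans 6353 bases of the minus strand, chrX:53047997-53054349 of mm10, with Mir322 first in the direction of transcription. Mir503 begins 295 bases after the start of Mir322, Mir351 996 bases, Mir542 4862 bases, Mir450a-2 5982 bases, Mir450a-1 6105 bases and Mir450b 6271 bases after it. No hairpin overlaps another annotated gene on either strand in GENCODE M21. The noncoding gene Gm28730 lies between Mir542 and Mir351, and C430049B03Rik ends 696 bases before Mir322, both on the same strand. M21 names the numbered copies Mir450-2 and Mir450-1.

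The mature sequences below (RefSeq, GRCm38.p6) show which products of the cluster share a seed with each other and with genes elsewhere. Each is written 5′ to 3′ with bases 2 to 8 in capitals. The first group holds miR-322-5p and miR-503-5p beside miR-15a-5p and miR-195a-5p, 2 products of genes outside the cluster.
miR-322-5p: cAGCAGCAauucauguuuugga
miR-503-5p: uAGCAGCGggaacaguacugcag
miR-15a-5p: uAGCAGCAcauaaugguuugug
miR-195a-5p: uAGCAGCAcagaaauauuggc
Within the seed, miR-322-5p and miR-503-5p differ by A8G, counted from 1 at the 5′ end of miR-322-5p. The next pair shares the seed CCCUGAG.
miR-351-5p: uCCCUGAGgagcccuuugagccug
miR-125a-5p: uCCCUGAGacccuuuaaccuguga
RefSeq holds a product from each arm of every member, and for Mir542 both are shown. The seed of miR-542-5p is shared by Mir6966, which had 1 count in replicate 2 and 2 counts in replicate 1, and that of miR-542-3p by no other matched gene.
miR-542-3p: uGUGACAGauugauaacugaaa
miR-542-5p: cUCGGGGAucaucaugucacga
The Mir450 products are shown because of what they have in common.
miR-450a-5p: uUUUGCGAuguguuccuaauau
miR-450b-5p: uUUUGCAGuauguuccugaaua
miR-450a-1-3p: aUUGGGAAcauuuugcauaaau
miR-450a-2-3p: aUUGGGGAugcuuugcauucau
miR-450b-3p: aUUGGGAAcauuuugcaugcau

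The sequence of miR-450a-5p occurs in 2 of the 2202 annotated hairpins, Mir450a-2 and Mir450a-1, whose hairpins share a run of 25 bases. Reads that fit both genes equally well were set aside before counting, so the counts of these 2 genes hold only what could be placed in 1 of them, and their levels are uncertain and too low for miR-450a as a whole. The 3p products of the copies differ at 6 positions, one of them in the seed (A7G, from miR-450a-1-3p to miR-450a-2-3p). The other 12 distinct mature sequences of the cluster were each found in a single hairpin gene. Mir450a-1 and Mir450b share a run of 19 bases, and miR-450a-1-3p and miR-450b-3p differ only by A19G and A20C and so share the seed UUGGGAA.

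Of 8555429 reads in replicate 2, 3208821 fell on microRNA genes, and of 5278986 in replicate 1, 2023410 did. Counts are given as CPM, assigned counts scaled to the same total in each library, so that 1 count equals 0.312 CPM in replicate 2, against 0.494 CPM in replicate 1. They are reads on each hairpin gene and were not divided by length. The members' mature sequences in RefSeq are 21 to 24 bases long. The tables hold microRNA genes only, so enzyme markers of the adrenal cortex were not measured. The 4 neuroendocrine markers, of the kind expected from the medulla, summed to 34945 CPM in replicate 2, against 28165 CPM in replicate 1. By the exact binomial test described below, Mir375 was higher in replicate 2, Mir7b and Mir137 were lower and Mir7-1 did not pass. Of 23 markers of cell types and neighbouring organs, 21 reached 10 CPM in both libraries and the striated muscle gene Mir1a-1 had no count in either. Multiply aligned reads were not counted, so this lack of counts does not show that its product was absent. Summed levels moved between the libraries for several of these types: endothelium (Mir126a) summed to 47927 CPM in replicate 2 and to 177728 in replicate 1. Liver (Mir122) stood at 9284 CPM in replicate 2 and 26733 in replicate 1. Striated muscle, almost all of it Mir206, stood at 4497 CPM in replicate 2 and 11273 in replicate 1. Epithelium stood at 2714 CPM in replicate 2 and 461 in replicate 1. The part of these cell types in the differences described below was not tested.

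Mir322 was the main product of the cluster in both libraries. It had 73247 counts (22827 CPM, exact Clopper-Pearson 95% interval 22664 to 22991) in replicate 2 and 38497 counts (19026 CPM, interval 18838 to 19215) in replicate 1, a mean of 20926 ± 2688 CPM (SD, n = 2). Among all 2202 genes it ranked 14 in replicate 2 and 12 in replicate 1. Mir351 came next, with 18816 counts (5864 CPM) in replicate 2 and 12261 counts (6059.6 CPM) in replicate 1, a mean of 5962 ± 138 CPM (SD, n = 2). These values put it at rank 38 in replicate 2 and rank 34 in replicate 1, and its SD was 2.32% of its mean, the lowest of the 7.

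Mir542 had 3917 counts (1221 CPM) in replicate 2 and 2957 counts (1461 CPM) in replicate 1, a mean of 1341 ± 170.2 CPM (SD, n = 2). Mir503, which shares its first 6 seed bases with miR-322-5p, had 1484 counts (462 CPM) in replicate 2 and 1761 counts (870.3 CPM) in replicate 1, a mean of 666 ± 288 CPM (SD, n = 2). It was the member with the widest relative spread, an SD of 43.3% of its mean, against at most 20.5% for the other 6. Replicate 1 held the higher level of Mir503 and of Mir542, and replicate 2 that of Mir322.

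The Mir450 genes were the low end of the cluster. Mir450b had 408 counts (127 CPM) in replicate 2 and 192 counts (94.9 CPM) in replicate 1, a mean of 111 ± 22.8 CPM (SD, n = 2). Mir450a-2 had 86 counts (26.8 CPM) in replicate 2 and 44 counts (21.7 CPM) in replicate 1. Mir450a-1 had 34 counts (10.6 CPM) in replicate 2 and 23 counts (11.4 CPM) in replicate 1, just above the 10 CPM at which a gene was called detected, with exact 95% intervals of 7.34 to 14.8 CPM and 7.21 to 17.1 CPM that reach below it. All 7 members were thus detected in both libraries, as were 302 of all 2202 genes.

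The order of levels was the same in both libraries: Mir322, Mir351, Mir542, Mir503, Mir450b, Mir450a-2, Mir450a-1. The range over the libraries did not overlap between any neighbours in that order. The smallest step was from Mir542 to Mir503 in replicate 1, 1.68-fold, which was 2.64-fold in replicate 2. Because Mir450a-2 and Mir450a-1 lost the reads they share, their place in the order applies only to the counted reads. No read was counted on the strand opposite to any member in either library, and a count of 0 allows up to 3 counts (0.935 CPM in replicate 2, against 1.48 CPM in replicate 1).

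**Figure D1:**
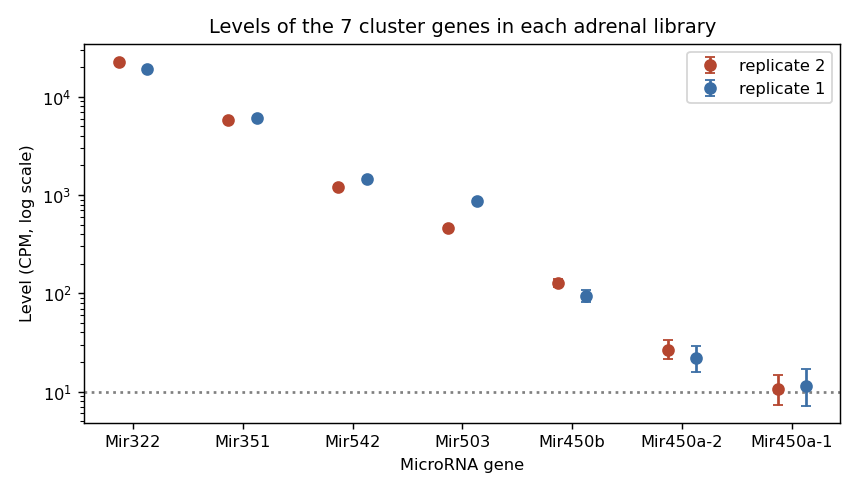
Level of each of the 7 cluster genes in CPM (log scale) in replicate 2 (left point) and replicate 1 (right point), with exact 95% counting intervals and a dotted line at 10 CPM. The levels run from 22827 CPM for Mir322 in replicate 2 to 10.6 CPM for Mir450a-1 in replicate 2, in the same order in both libraries.

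Together the members took 3.05% of assigned counts in replicate 2 (exact 95% limits 3.04 and 3.07%), against 2.75% in replicate 1 (limits 2.73 and 2.78%). Mir322 made up 74.7% of the cluster's counts in replicate 2 and 69.1% in replicate 1, and Mir351 made up 19.2% in replicate 2 and 22.0% in replicate 1. Mir542 held 4.00% in replicate 2 and 5.31% in replicate 1, and Mir503 held 1.51% in replicate 2 and 3.16% in replicate 1. The 3 Mir450 genes summed to 0.539% of the cluster in replicate 2 and 0.465% in replicate 1. The shares of the cluster are ratios of members within a library and do not depend on how the libraries are scaled to each other. The share of assigned counts does depend on the other genes in the total. Mir126a alone stood at 47927 CPM in replicate 2 and 177728 in replicate 1. With Mir126a left out of the totals, the members' share was higher in replicate 1.

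Levels did not follow position in a simple order. Mir503 lies between the 2 most abundant members, 200 bases from the hairpin of Mir322 and 630 bases from that of Mir351, and was 49.4 times lower than Mir322 in replicate 2 and 21.9 times lower in replicate 1. The 3 genes at the far end of the cluster were the 3 lowest, and of these the last, Mir450b, was the highest. Mir450a-2 and Mir450a-1 lost the reads they share, so their place below Mir450b applies only to counted reads. The hairpins of the 3 genes at the far end also had the lowest GC content, 30.5 to 36.2%, against 50.5 to 54.9% in the other 4. Predicted folding energy ran from -26.5 kcal/mol for the Mir450a-2 hairpin to -42.9 kcal/mol for that of Mir322. Mir450a-1, the lowest gene by counted reads, had the next most stable fold at -41.0 kcal/mol. With 7 genes of 1 locus these are descriptions.

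**Figure D2:**
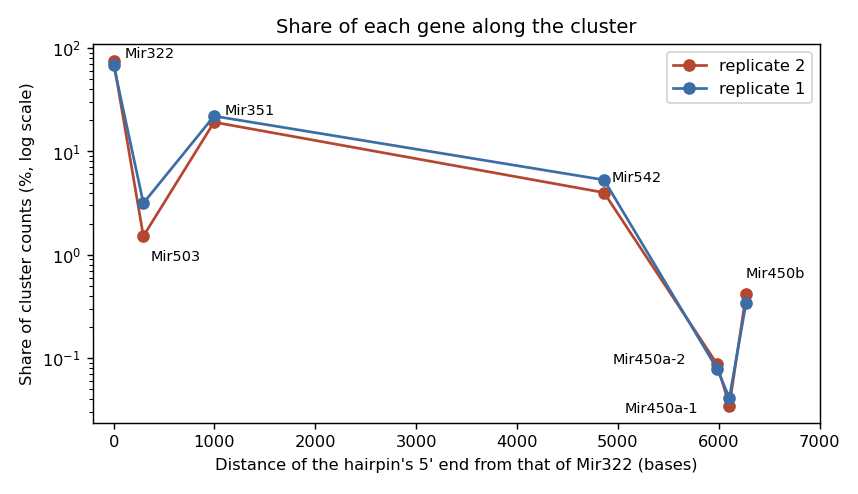
Share of the cluster's counts (%, log scale) held by each gene, against the distance in bases of its hairpin's 5′ end from that of Mir322, for replicate 2 and replicate 1. Mir503, 295 bases after Mir322, stands at 1.51% in replicate 2 and 3.16% in replicate 1, below its neighbours on both sides.

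How far each member differed between the libraries was tested by an exact conditional binomial test with TMM-scaled totals (edgeR) and Benjamini-Hochberg adjustment over the 329 genes at 10 CPM or more in either library. This test sets 2 libraries against counting error and not conditions against each other. It called 4 of the 7 members, 2 higher and 2 lower in replicate 2, where 74.2% of all genes tested were called, 37.7% as higher and 36.5% as lower. A share of 4 in 7 is not above that background. The background depends on the floor: with none, 4 of 7 members were called beside 31.3% of 790 genes, and at 100 CPM in either library 4 of 5 members beside 89.9% of 217 genes.

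Mir322 was higher in replicate 2 (log2 ratio of replicate 2 over replicate 1 of 0.31, exact 95% interval 0.29 to 0.33, adjusted p = 4.65e-261). Mir450b was higher too (0.47, interval 0.22 to 0.73, adjusted p = 0.00028). Mir503 was lower in replicate 2 (-0.86, interval -0.96 to -0.76, adjusted p = 2.99e-64), and Mir542 was lower by less (-0.21, interval -0.28 to -0.14, adjusted p = 4.22e-09). These log2 ratios include a pseudocount of 1 CPM, and their intervals do not. The intervals cover counting error and not the choice of scaling factor. Mir322 stood at 0.26 without a TMM factor and at 0.24 with TMM over the tested genes alone, both below its interval. With DESeq2 size factors it stood at 0.32, within the interval. So Mir322 was higher in replicate 2 under each of these scalings, but by an amount that depends on the scaling. Its ratio with Mir126a left out of the totals was not computed.

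Mir351 had a log2 ratio of 0.0007 (interval -0.032 to 0.034, adjusted p = 0.981), the smallest in size of all 329 genes. Its value is near enough to 0 that scaling sets its sign. Without a TMM factor Mir351 was lower in replicate 2 (-0.047, adjusted p = 0.00695), and with TMM over the 329 genes alone it was lower as well (-0.075, adjusted p = 1.48e-05), by the same exact test. Mir450a-2 (0.34, interval -0.19 to 0.91, adjusted p = 0.255) and Mir450a-1 (-0.049, interval -0.86 to 0.78, adjusted p = 0.915) did not pass, and the width of their intervals reflects their low counts.

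All 7 members lay within 1 log2 unit between the libraries, as did 77.8% of the genes tested. Their median log2 ratio was 0.0007, beside -0.0052 over all genes tested, and their SD was 0.45, beside 1.01. Of all genes tested, 72.9% had a smaller log2 ratio in size than Mir503, and 31.9% a smaller one than Mir322.

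**Figure D3:**
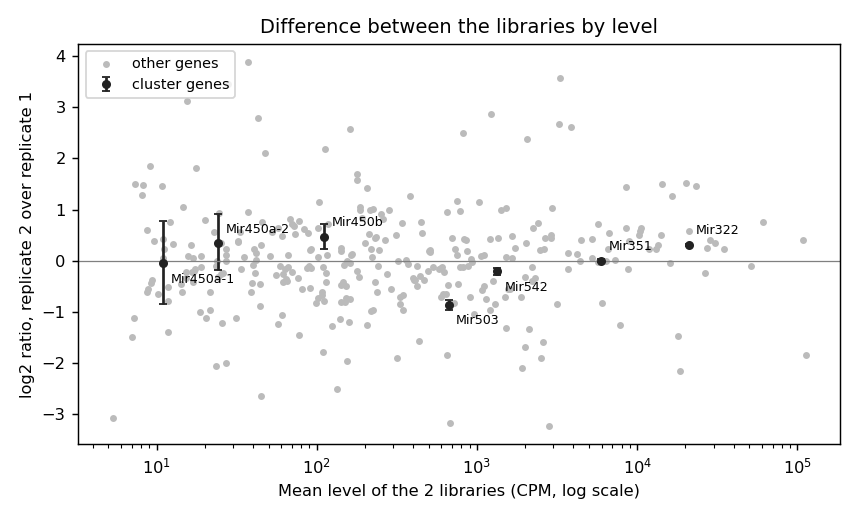
Log2 ratio of replicate 2 over replicate 1 against mean level in CPM (log scale) for the 329 genes tested, with the 7 cluster genes in black and their exact 95% intervals. The cluster genes lie between -0.86 (Mir503) and 0.47 (Mir450b).

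A ratio of 2 genes within a library needs no scaling factor, so the ratios of members can be compared between the libraries without one. Fisher's exact test was run on all 689 pairs of genes within the same cluster, where both genes had 10 CPM or more in both libraries and neighbouring hairpins lay less than 10 kb apart on 1 strand. After Benjamini-Hochberg adjustment over those pairs, 11 of the 21 member pairs differed between the libraries, where 81.1% of all such pairs did. The median change was 0.47 log2 units in size for member pairs and 0.76 for all pairs. Most of the 689 pairs come from a chromosome 12 cluster with 33 measured genes, so these background values describe mainly that locus. Pairs that share a gene are not independent of each other.

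The largest change among abundant members was that of Mir322 over its nearest neighbour. Mir322 outnumbered Mir503 49.4-fold in replicate 2 and 21.9-fold in replicate 1, a change of 2.26-fold (95% interval 2.10 to 2.42 by the log odds ratio, adjusted p = 2.58e-113 by Fisher's exact test). Mir351 over Mir503 moved the same way, 12.7-fold in replicate 2 and 6.96-fold in replicate 1 (change of 1.82-fold, interval 1.69 to 1.96). Mir503 over Mir450b moved further, at 3.64-fold in replicate 2 and 9.17-fold in replicate 1 (change of 0.397-fold, interval 0.330 to 0.477).

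Of the 6 pairs that include Mir503, 5 passed the test, where 81.1% of all 689 within-cluster pairs did. The exception was the pair with Mir450a-1 (adjusted p = 0.0535, Fisher's exact test). These 6 pairs all use the same counts of Mir503, so 5 of 6 is not a result about Mir503 beyond that background. Of the 15 pairs without Mir503, 6 passed. Mir322 over Mir351 stood at 3.89 in replicate 2 and 3.14 in replicate 1 (change of 1.24-fold, interval 1.21 to 1.27), and Mir351 over Mir542 at 4.80 in replicate 2 and 4.15 in replicate 1 (1.16-fold, interval 1.10 to 1.22). All 6 pairs among Mir322, Mir351, Mir542 and Mir503 passed. Of all pairs with both genes at 100 CPM or more in both libraries, which these 4 genes reach, 88.3% did.

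The Mir450 genes were not shown to move apart from each other or from Mir322: none of their 3 pairs with each other and none of the 3 with Mir322 passed. Of all within-cluster pairs, 81.1% passed. Mir322 over Mir450b stood at 179.5 in replicate 2 and 200.5 in replicate 1, a change of 0.895-fold whose interval of 0.754 to 1.06 allows a lower ratio as well as a slightly higher one. Mir450b over Mir450a-1 changed by 1.44-fold with an interval of 0.824 to 2.51, too wide to show that the 2 genes kept together.

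Members of the cluster spread less between the libraries than those of most other clusters. Over the 14 clusters with at least 3 genes at 10 CPM in both libraries, the SD of log2 ratios within the cluster ranged from 0.29 to 1.35, and that of the 7 members, 0.45, was the third lowest. The other clusters nearest in number of measured genes were the Mir669l cluster on chromosome 2 (6 genes measured, SD 1.15), the X-linked Mir500 cluster (5 genes, SD 0.53) and the Mir17 cluster on chromosome 14 (4 genes, SD 0.47). The Mir17 cluster tied with the X-linked Mir363 cluster (4 genes, SD 0.90) and was taken for its higher summed level. The difference between clusters was not tested. When only genes at 100 CPM in both libraries were kept, 4 members remained with an SD of 0.50, ranking 2 of 8, and with genes joined up to 50 kb apart the rank was 5 of 15.

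**Figure D4:**
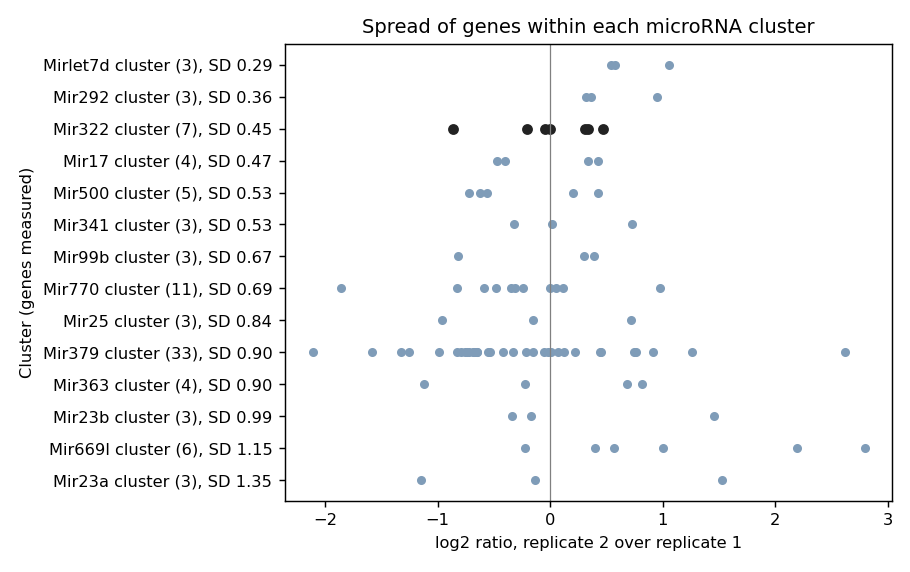
Log2 ratio of replicate 2 over replicate 1 of each gene in the 14 clusters with at least 3 genes at 10 CPM in both libraries, 1 row per cluster named by 1 of its genes, with the number of genes measured and their SD. The 7 members, in black, span -0.86 to 0.47 with an SD of 0.45.

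By seed, Mir322 supplied most of the counted reads of genes with AGCAGCA at bases 2 to 8. Of the 11 genes with this seed, 7 were at 10 CPM or more in both libraries. The others, Mir195b, Mir6342, Mir6353 and Mir6419, had no count in either. Of all counts on the 11 genes, Mir322 held 84.1% in replicate 2 (exact 95% limits 83.8 and 84.3%), against 54.5% in replicate 1 (limits 54.1 and 54.9%). This shift came mostly from the other genes. Of the AGCAGC-seed list of Mir15, Mir16, Mir195 and Mir497 genes with both members, 10 of the 11 names are in the M21 tables and 8 were at 10 CPM in both libraries. The 6 of these outside the cluster were all lower in replicate 2, with a median log2 ratio of -1.32, where 36.5% of all genes tested were called lower.

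Among them Mir195a had 525 CPM in replicate 2, against 5135 CPM in replicate 1 (log2 ratio -3.24), the lowest ratio of all 329 genes. Mir15a had 1025 CPM in replicate 2, against 3996 CPM in replicate 1 (-1.91), and Mir15b had 1246 CPM in replicate 2 and 3895 in replicate 1 (-1.60). Mir497, which shares a cluster with Mir195a, had 669 CPM in replicate 2, against 1136 CPM in replicate 1 (-0.71). Mir503 was lower in replicate 2 like these genes, while Mir322 was higher. Mir16-1 (609 CPM in replicate 2, 1301 in replicate 1) and Mir16-2 (245 CPM in replicate 2, 416 in replicate 1) share the same mature sequence and lost the reads that fit both, so the share held by Mir322 is one of counted reads and not of the family. Arms are not separated, so the counts of Mir322 can include miR-322-3p, which has another seed.

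**Figure D5:**
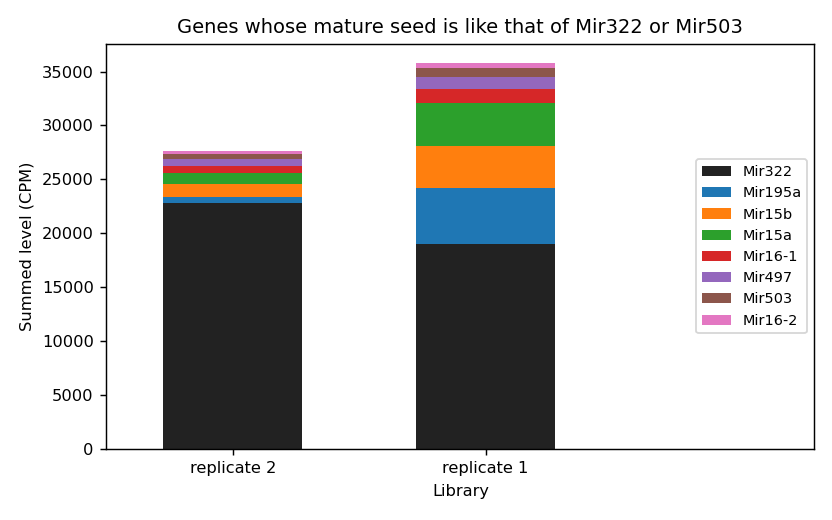
Summed level in CPM of the 8 AGCAGC-seed genes at 10 CPM or more in both libraries, stacked by gene, in replicate 2 (left) and replicate 1 (right). Mir322 stands at 22827 CPM in replicate 2, against 19026 CPM in replicate 1, while the 6 genes outside the cluster sum to 4318 CPM in replicate 2, against 15878 CPM in replicate 1.

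Mir351 and Mir125a, which share the seed CCCUGAG, had similar mean levels, 5962 and 5993 CPM, but differed in how far the libraries lay apart. Mir351 stood at 5864 CPM in replicate 2, against 6059.6 CPM in replicate 1, and Mir125a at 4239 CPM in replicate 2, against 7747 CPM in replicate 1 (log2 ratio -0.82, interval -0.85 to -0.79). Mir351 held 54.5% of the counts of the 6 genes with this seed in replicate 2 and 41.9% in replicate 1. Mir125b-1 (398 CPM in replicate 2, 445 in replicate 1) and Mir125b-2 (267 CPM in replicate 2, 199 in replicate 1) share their 5p sequence and lost the reads that fit both, so these shares cover counted reads only. The shares also pool the arms of each hairpin, and miR-351-3p has another seed. Of the 2 other genes with this seed, Mir6367 and Mir6394, neither had a count in either library.

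Genes outside the cluster with the most similar levels to Mir322, by Euclidean distance in log2(CPM + 1) over the 2 libraries, were Mir10a (24962 CPM in replicate 2, against 17281 CPM in replicate 1, distance 0.189), followed by Mir139, Mir335, Mir375 and Mir127. In replicate 2 the last 4 stood at 29196, 15441, 31924 and 23754 CPM, and in replicate 1 at 25441, 16496, 24805 and 29138 CPM, with distances of 0.549 to 0.618. With 2 libraries of 1 group, likeness of this kind describes level alone.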

How the data were processed

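MicroRNA-seq libraries of 2 adrenal samples were analysed. According to a text note deposited beside the tables, the authors counted each library's reads on microRNA genes of GENCODE M21 (mm10), and the deposited counts are not normalized. Aligner and counter: not given in the sources used here. Of the 3 count columns, by their values irrespective of strand, on the gene's strand and on the opposite strand, the second was used. The 4 summary lines (unmapped, multiply aligned, outside genes, ambiguous) stayed out of totals. All 2202 gene IDs matched M21. Multiply aligned reads, 27.2% of reads in replicate 2 and 25.0% in replicate 1, are missing from the counts. Arms and parental alleles are not separated. No standard measured how well each sequence was recovered.

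CPM scale assigned counts to the same total in each library. Between-library tests used TMM over all genes (edgeR 4.0.16, R 4.3.3), an exact conditional binomial test and Benjamini-Hochberg adjustment over 329 genes. TMM was first computed over those 329 genes alone, which called 5 members, Mir351 as lower among them. It was changed to all genes after that output was seen, to match an earlier treatment of these data, and 4 members were then called, without Mir351. Ratios of genes were tested by Fisher's exact test (SciPy 1.17.1) over 689 pairs. Intervals cover counting error only, since no molecular identifiers are named. DESeq2 1.42.0 gave alternative size factors. The tests were checked on simulated data. Hairpins were folded with RNAfold 2.7.2. Mature sequences are RefSeq's (GRCm38.p6), matched by position for all 7 genes.

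The members and lists were chosen with earlier results of these data known. The rule for named genes took all members, up to 6 genes per shared seed, the 5 genes nearest Mir322 in level, the 3 clusters nearest in number of measured genes, and a fixed list of cell type markers.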

Additional observations from a re-analysis of the deposited data

How the results depend on the processing

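Over 47 member log2 ratios computed under other scalings, floors, pseudocounts and strand settings, 44 kept their direction and their side of the threshold. The other 3 were all of Mir351, at -0.047 without TMM, -0.075 with TMM over the 329 genes alone (the first choice made, replaced after its output was seen) and -0.021 irrespective of strand. This tally does not cover size, which moved with the scaling. Mir322 stood at 0.24 with TMM over the 329 genes alone and at 0.32 with DESeq2 size factors. No log2 ratio was computed with Mir126a left out. The number of members called was 4 or 5 under every setting run, while the share called of all genes ran from 31.3% with no floor to 89.9% at 100 CPM, where 5 members were tested. The summed share of the members, 2.90% on average, was 3.92% of counts irrespective of strand, where ambiguous reads left the total, 1.10% of all reads of the library, and 3.28% with Mir126a left out of the totals (chosen after seeing the data). Without 1 of the replicates it was 2.75 or 3.05%. The averages hide a change of order between the libraries. By assigned counts and by all reads the summed share was higher in replicate 2. Irrespective of strand, and with Mir126a left out, it was higher in replicate 1. At 100 CPM in both libraries, 6 of 6 member pairs passed, in place of 11 of 21 (88.3% of all pairs passed at that floor). This floor leaves out the pairs with a Mir450 gene, of which 5 of 15 had passed. One of those 5, Mir542 with Mir450a-2, lay near the threshold (adjusted p = 0.0487, Fisher's exact test). With at least 1 count in both libraries as the floor, 10 of 21 member pairs passed, beside 68.9% of 928 pairs. The SD of the members' log2 ratios was 0.50 at 100 CPM in both libraries. The share of AGCAGCA-seed counts held by Mir322, 69.3% on average, was 54.5 or 84.1% without 1 of the replicates. Mir450a-2 and Mir450a-1 are limited by depth and by reads set aside. No paired analysis was possible because both libraries belong to 1 group.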

Other observations

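The 7 members made up 52.4% of the counts on 142 X-linked microRNA genes in replicate 2 and 53.9% in replicate 1, a difference that was not tested. Of these 142 genes, 33 reached 10 CPM in both libraries, and 26 of the 33 lie outside the cluster. By the exact conditional binomial test, 16 of the 26 were higher and 6 lower in replicate 2, where 37.7% of all genes tested were higher and 36.5% lower, and 4 did not pass (median log2 ratio 0.28, SD 0.66, beside 0.0007 and 0.45 for the members and -0.0052 and 1.01 for all genes tested). After Mir322, the most abundant X-linked gene was Mir652, with 12592 CPM in replicate 2, against 11085 CPM in replicate 1 (log2 ratio 0.23, interval 0.21 to 0.26). Mir652 was named after its values were seen, and the difference between members and other X-linked genes was not tested.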
